A study of Fragaria vesca with 12 samples.

Results

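Strawberries stored at 1°C after a short CO2 treatment (CO2-cold stored fruit, CCS) were compared with strawberries stored at 1°C in air (air-cold stored fruit, ACS). The comparison used the 3 CCS and the 3 ACS libraries, 6 of the 12 RNA-seq libraries of the series, which were assigned by their labels. All fruit were ripe Mara des Bois berries, labelled Fragaria vesca. CCS fruit spent 7 days at 1°C, of which the first 2 were under 18% CO2, 18% O2 and 64% N2 and the other 5 in air, and then 1 day at 20°C. ACS fruit spent the 7 days at 1°C in air and then the same 1 day at 20°C. The RNA was thus taken after the gas had been replaced by air and after the return to 20°C. Fruit kept for 2 days at 20°C without cold storage (NCS) and fruit taken 2 h after harvest (AH), with 3 libraries each, are given only as background levels. Each library was a pool of at least 50 berries by the labels and the extraction method, although the sampling method describes smaller batches at freezing. The pools of a group came from 1 container, so the CO2 treatment and the container cannot be told apart, and the p-values measure only the spread between pools of that container. Whole fruit were sampled, and in such bulk RNA fewer cells of a type and less RNA per cell cannot be told apart.

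A strawberry is a swollen receptacle that carries the achenes, the true dry fruits with the seeds inside. It softens as enzymes dismantle pectin, xyloglucan and cellulose in the cell walls, while phenolics and lignin can stiffen the walls. Jasmonates, ethylene, gibberellins and auxin shape how plant tissue responds to wounding, pathogens and cold, and jasmonate is made from polyunsaturated fatty acids by lipoxygenase, allene oxide synthase, allene oxide cyclase and oxophytodienoate reductase in turn. Atmospheres rich in CO2 are used after harvest to slow decay and softening of berries.

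The deposited table listed 34008 genes, 24409 of them with a description taken from Rosaceae, and 16680 genes reached 0.5 RPKM (read density over the gene, normalised for the size of the library) in at least 3 of the 6 libraries and were tested. Fold changes are CCS over ACS on the scale of log2(RPKM + 0.1), where weakly expressed genes show less than their full change, and adjusted p-values come from limma with Benjamini-Hochberg adjustment over the 16680 genes. At an adjusted p of 0.05 or less, 4793 genes differed (28.7% of those tested), of which 3075 were higher in CCS (18.4%) and 1718 were lower (10.3%). The changes were small: the called genes had a median change of 0.35 in size, and 4577 of the 4793 changed by less than 1. The direction of this count depended on the scaling. The median log2 change of all tested genes was 0.07 with RPKM as deposited and 0.00 after median-of-ratios scaling, under which 1565 genes were higher (9.38%) and 2151 lower (12.9%), 22.3% in all. The share of higher genes among those called was 64.2% as deposited and 42.1% after scaling. CCS and ACS libraries did not overlap for 47.3% of the tested genes, of which 31.8% of the tested genes were higher in every CCS library and 15.4% lower. Small shifts upwards are therefore read below against a median of 0.07, and the counts after scaling are given where they change the picture.

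Reads on genes, recovered from the RPKM steps, numbered 70064773 to 81619676 in CCS and 64270571 to 96017973 in ACS libraries, and the first principal component, with 54.96% of the variance, separated CCS from ACS. Genes of the achenes differed widely between libraries of the same group. The summed RPKM of the 12 tested genes among 14 listed for seed storage and oil bodies was 3129, 2809 and 1012 in CCS libraries 1 to 3, against 4122, 2207 and 2074 in ACS libraries 1 to 3. CCS library 3 was lowest and ACS library 1 highest, the groups overlapped, and none of them passed the limma test in either direction (0 at an unadjusted p under 0.05 and 0 by voom, limma's test for counts, run on read numbers worked back from the RPKM). With the level of these genes as a covariate, 3046 genes were higher and 1771 lower in CCS, and 4346 of the 4793 calls were kept in the same direction. Without CCS library 3, 2762 of the 4793 calls were kept. Leaving out any 1 library lowered the number of genes called, to between 2521 and 4133, and such fits have fewer samples.

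When a change of at least 1.5 on the log2 scale was also required, the criterion used for differentially expressed genes (DEGs) in the study, 53 genes remained (0.318% of those tested), 49 lower in CCS (0.294%) and 4 higher (0.024%). In each of the 53 the 3 CCS libraries lay apart from the 3 ACS libraries. Most of the 49 were weakly expressed, since 27 had an ACS mean under 3 RPKM and 30 a CCS mean under 1 RPKM, while 12 had an ACS mean of at least 10 RPKM. After scaling, all 49 lower genes and 3 of the 4 higher genes were still DEGs. As this scaling moves every change downwards, it is no check on the size of the falls. Of the 49 lower genes, 48 were DEGs without CCS library 3 as well as with the achene covariate.

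**Figure D1:**
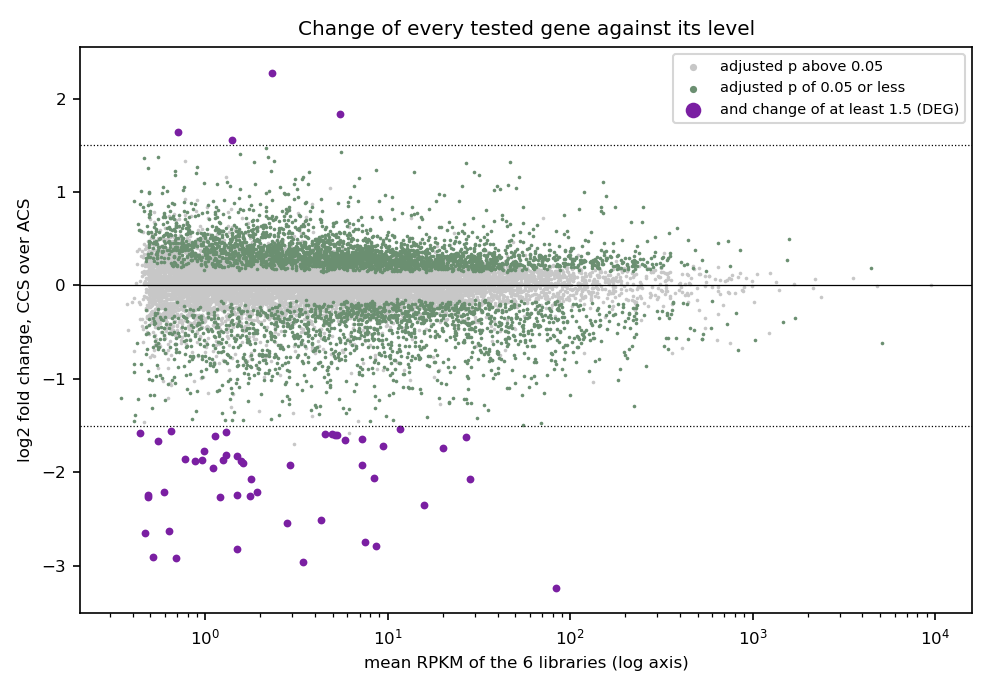
Log2 fold change of CCS over ACS (vertical axis) against the mean RPKM of the 6 libraries (horizontal log axis) for the 16680 tested genes, with dotted lines at changes of 1.5. The 53 DEGs are drawn in purple, 49 of them below the lower line and 4 above the upper line, and most of the other called genes (green) lie close to 0.

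The lowest fold change belonged to FvH4_1g04050, which has no Rosaceae description and which a second annotation in the table lists as a probable arylsulfatase A family protein. It had 15.7, 17.8 and 14.6 RPKM in CCS libraries, against 155, 142 and 159 RPKM in ACS libraries. All CCS libraries were far below all ACS libraries, a 9.44-fold lower mean and a log2 change of -3.23 ± 0.09 (SE, n = 3 each, adjusted p = 0.000122), and the AH mean was higher still at 290 RPKM. FvH4_6g38920, also without a Rosaceae description and listed by the second annotation as an ankyrin repeat protein, had 0.617, 0.692 and 0.787 RPKM in CCS, against 5.50, 6.59 and 6.27 RPKM in ACS (log2 change -2.96 ± 0.10). FvH4_2g11650, a bHLH transcription factor, had 1.90, 2.40 and 2.08 RPKM in CCS and 15.04, 15.3 and 15.1 RPKM in ACS. Its fall of 2.78 on the log2 scale left the CCS libraries below the NCS mean of 10.5 RPKM and the AH mean of 24.5 RPKM as well.

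The 15 lower DEGs with the largest changes were spread over several functions. Both genes of the stigma-specific Stig1 family among them, FvH4_3g01670 and FvH4_2g01120, were at or below 0.139 RPKM in every CCS library, against 0.745 to 1.63 RPKM in ACS. Both cupredoxins, FvH4_2g35020 and FvH4_2g35560, small copper proteins of the wall and membrane, were at or below 0.130 RPKM in CCS, against 0.789 to 1.33 RPKM in ACS. The B12D protein FvH4_6g46480 had 0.638, 0.667 and 0.684 RPKM in CCS and 8.55, 3.19 and 2.98 RPKM in ACS, so that ACS library 1 held most of its difference. FvH4_1g16980, of the GH3 family that conjugates auxin or jasmonate to amino acids, was almost level within groups, with 0.550, 0.548 and 0.547 RPKM in CCS, against 2.73, 3.05 and 3.17 RPKM in ACS (log2 change -2.25 ± 0.07).

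**Figure D2:**
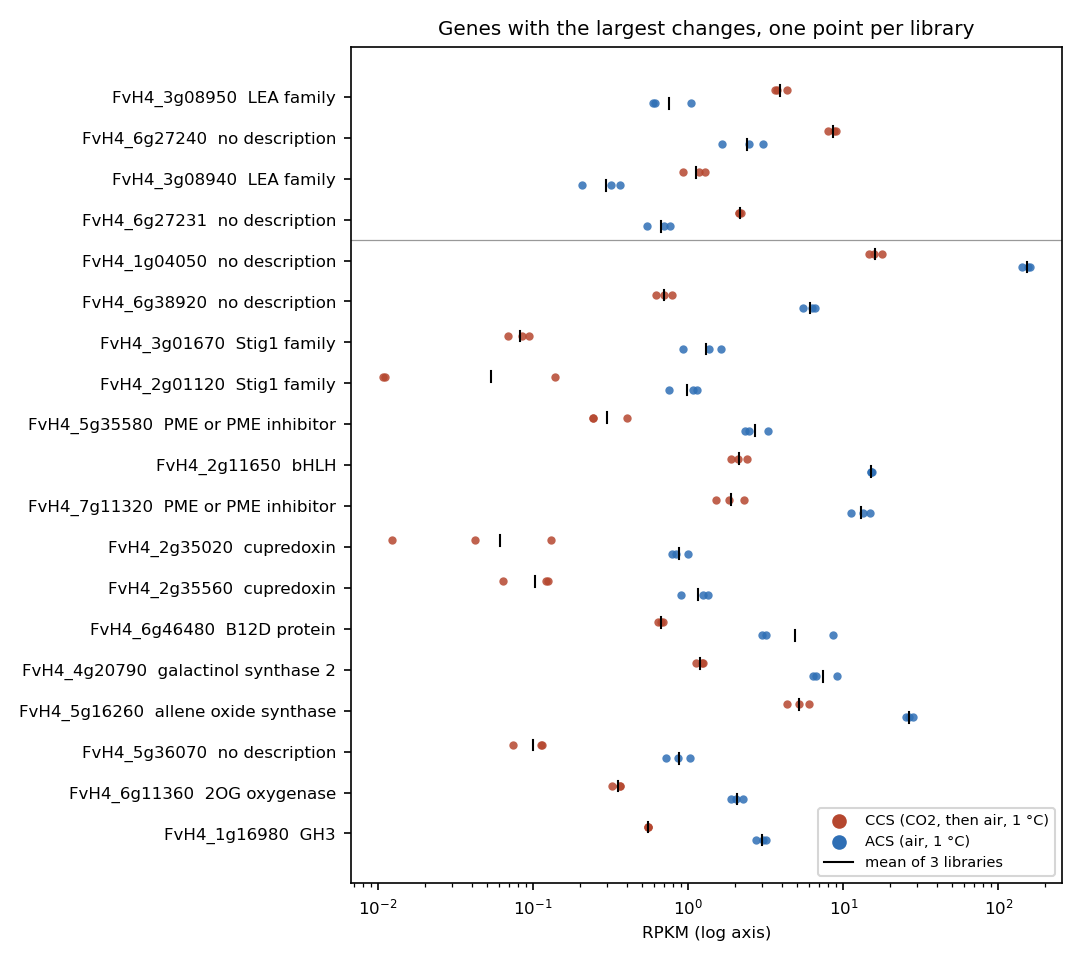
RPKM (horizontal log axis) of the 4 higher DEGs, above the line, and of the 15 lower DEGs with the largest changes, below it, with 1 point for each library (CCS in red, ACS in blue) and a bar at the mean of 3 libraries. In every gene the points of both groups are apart, and FvH4_1g04050 is the only one of the 15 with ACS values above 100 RPKM.

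The DEGs aside, groups of genes formed from the words of their descriptions were compared by their counts and medians. In 26 of 58 groups the called genes were more often lower than higher in CCS, and after scaling this held for 43 groups. Jasmonate and defence groups lay at the lower end and groups of chromatin, replication and ribosomal proteins at the upper end, with the wall groups spread to both sides of 0.

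**Figure D3:**
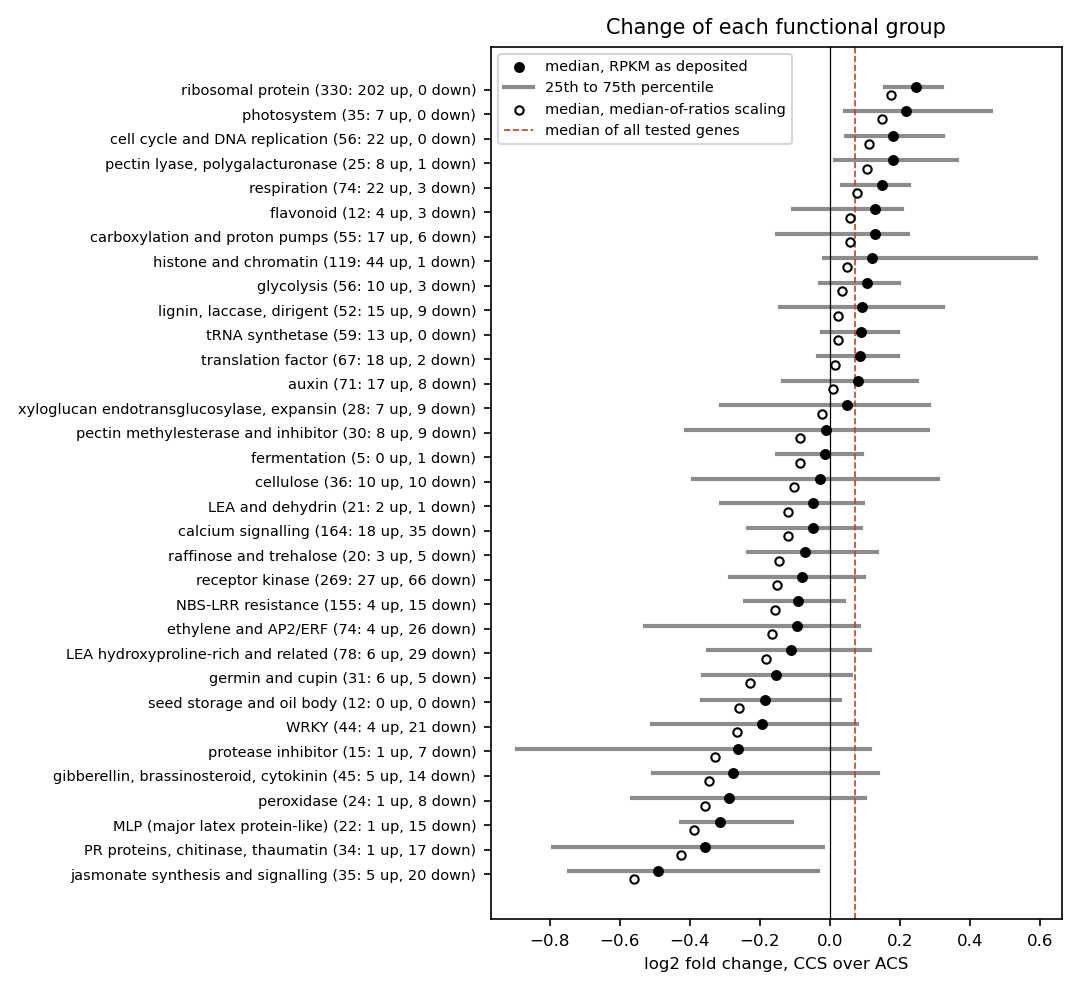
Median log2 fold change of CCS over ACS for the tested genes of each functional group (filled points, RPKM as deposited), with the 25th to 75th percentile (grey bars) and the median after median-of-ratios scaling (open points), while the number of tested genes and of genes called higher (up) and lower (down) stands beside each name. Jasmonate genes have the lowest median (-0.49) and ribosomal proteins the highest (0.25), and the dashed line marks the median of all tested genes (0.07).

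Most jasmonate genes that were tested fell. Of 49 listed genes 35 were tested, of which 20 were lower in CCS (57.1%) and 5 higher (14.3%), with a median log2 change of -0.49 (21 lower, 2 higher and a median of -0.56 after scaling). Their summed RPKM was 561, 541 and 565 in CCS libraries, against 701, 734 and 736 in ACS libraries, so that no CCS library reached any ACS library. The sum was 1028 in NCS and 445 in AH fruit.

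At the first step of the pathway, lipoxygenases oxygenate fatty acids, and their genes moved both ways. Lipoxygenase 1 FvH4_6g06090 had 12.8, 12.1 and 13.2 RPKM in CCS, against 29.4, 31.8 and 29.9 RPKM in ACS, a fall of 1.25 ± 0.06 on the log2 scale (adjusted p = 0.000270). Its neighbour in number FvH4_6g06100, also described as lipoxygenase 1, differed by -0.19 and did not pass the test (adjusted p = 0.10). Another member, FvH4_6g34970, fell by 0.72, while 4 of the 8 tested lipoxygenases, both lipoxygenase 2 genes FvH4_7g00440 and FvH4_5g05680 among them, rose by 0.23 to 0.36. After scaling 1 of these 4 rises still passed the test and 3 lipoxygenases were lower.

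Allene oxide synthase turns the hydroperoxide into the epoxide that commits it to jasmonate, and 3 of its 4 tested genes fell. FvH4_5g16260 had 5.98, 4.33 and 5.20 RPKM in CCS, against 27.9, 26.3 and 25.2 RPKM in ACS (log2 change -2.35 ± 0.12, adjusted p = 0.000306). FvH4_2g07421 had 2.87, 3.05 and 3.65 RPKM in CCS, against 15.2, 12.8 and 12.6 RPKM in ACS (log2 change -2.06 ± 0.12, adjusted p = 0.000375). In both, every CCS library was below every ACS library by a wide margin. Neither gene was above 0.70 RPKM on average in AH fruit, whereas FvH4_2g07423, the third gene, fell by 0.63 and had an AH mean of 13.5 RPKM, above all 6 stored libraries. FvH4_2g40510, the most expressed synthase, had 33.0, 30.6 and 32.01 RPKM in CCS and 34.0, 32.9 and 34.2 RPKM in ACS (adjusted p = 0.27).

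Allene oxide cyclase, the next enzyme, showed a rise, a fall and a difference that did not pass the test. Allene oxide cyclase 4 FvH4_5g31510 had 11.7, 12.3 and 12 RPKM in CCS, against 7.88, 8.15 and 8.18 RPKM in ACS, and rose by 0.57 ± 0.05 (adjusted p = 0.000865). FvH4_6g45370, with the same description, fell by 0.49 at an adjusted p of 0.049. FvH4_4g28021, the most abundant cyclase at 67.6 to 77.5 RPKM in CCS and 74.5 to 79.6 RPKM in ACS, did not pass the test.

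Oxophytodienoate reductases finish the ring chemistry before the chain is shortened in the peroxisome, and 9 of the 10 tested genes fell, with none higher (0 at an unadjusted limma p under 0.05 and 0 by voom) and a median change of -0.74. Oxophytodienoate reductase 3, the isoform that makes jasmonate in Arabidopsis, was represented by 3 falling genes. FvH4_1g08454 had 15.99, 14.5 and 17.6 RPKM in CCS, against 38.7, 40.1 and 36.7 RPKM in ACS, and fell by 1.26 ± 0.08 (adjusted p = 0.000460). FvH4_1g08453, next to it, had 4.93, 5.14 and 5.46 RPKM in CCS and 12.7, 11.9 and 11.1 RPKM in ACS, and as adjacent copies these genes may share reads. FvH4_1g08490 fell by 1.01, and FvH4_1g08510, the member that did not pass the test, differed by -0.01.

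At the end of the pathway, jasmonic acid carboxyl methyltransferase makes the volatile methyl ester. FvH4_2g39441 had 27.9, 27.4 and 31.3 RPKM in CCS, against 72.0, 85.9 and 86.2 RPKM in ACS (log2 change -1.49 ± 0.09, adjusted p = 0.000431), all below the NCS mean of 329 RPKM. FvH4_2g39450 fell by 0.67, and FvH4_4g32960, the most expressed of the 3 tested, had 135, 124 and 133 RPKM in CCS and 128, 140 and 143 RPKM in ACS, with overlapping groups. JAZ repressors, which jasmonate both degrades and induces, were listed together with JAZ interactors, and 7 genes of this list were tested. Of these, JAZ10 FvH4_4g23000 (2.59, 2.68 and 2.52 RPKM in CCS, 4.14, 4.75 and 4.31 RPKM in ACS), JAZ1 FvH4_1g09070 and JAZ8 FvH4_3g05370 fell by 0.73, 0.69 and 0.62. The other 4 differed by -0.07 to 0.09 and did not pass the test.

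**Figure D4:**
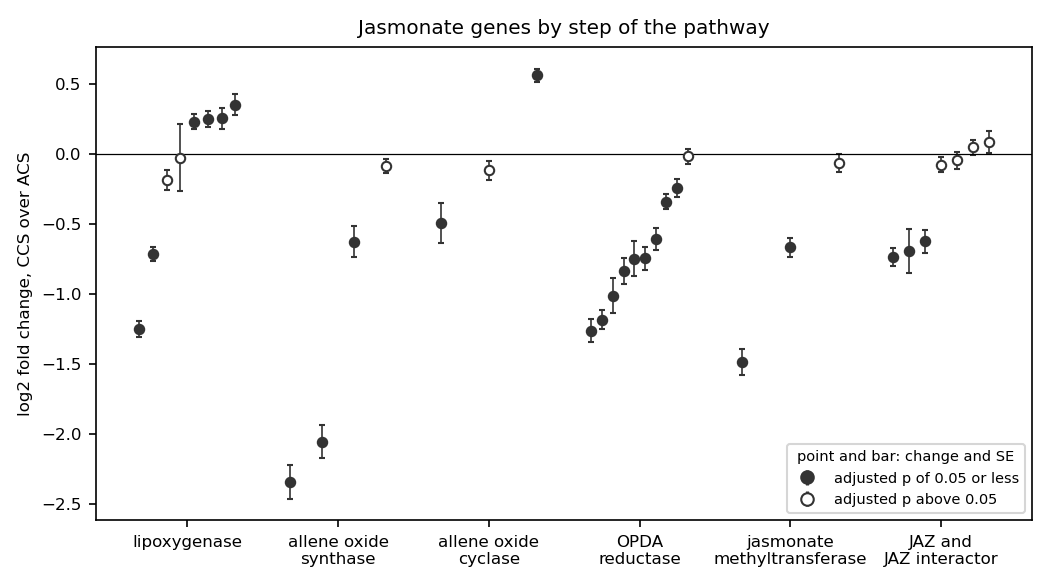
Log2 fold change of CCS over ACS (vertical axis, bars of 1 SE) for each tested jasmonate gene, grouped by step of the pathway from left to right and filled where the adjusted p was 0.05 or less. The reductases lie below or at 0, both lowest points are allene oxide synthases, and lipoxygenases and cyclases lie on both sides of 0.

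In the ethylene group, with its AP2/ERF transcription factors, 26 of 74 tested genes fell and 4 rose (median -0.09, and 29 against 1 after scaling). ACC synthase makes the ethylene precursor. ACC synthase 1 FvH4_7g15310 had 9.17, 8.58 and 9.07 RPKM in CCS, against 23.6, 24.1 and 24.0 RPKM in ACS, a fall of 1.41 ± 0.05 (adjusted p = 0.000125) between groups that varied little within themselves. The tested ACC oxidase, which makes ethylene from that precursor, was higher by 0.22 as deposited, and this call was lost after scaling. Of 35 tested genes described as Integrase-type DNA-binding, the description under which most AP2/ERF factors stand, 14 fell and 3 rose, and the largest falls were those of FvH4_4g03450 (-1.43), FvH4_5g33180 (-1.22) and FvH4_2g21560 (-1.22). Ethylene response factor 1 FvH4_4g03470 had 1.88, 1.34 and 1.82 RPKM in CCS and 4.11, 4.18 and 3.45 RPKM in ACS, and fell by 1.18.

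Gibberellin, brassinosteroid and cytokinin genes had a median of -0.28, with 14 of 45 lower and 5 higher. This median lay between -0.27 and -0.11 when 1 library was left out, and was -0.17 with the achene covariate. Gibberellin 2-oxidases inactivate gibberellins, and 4 of the 5 tested fell. FvH4_4g20730 had 1.60, 1.74 and 1.62 RPKM in CCS and 3.34, 3.33 and 3.09 RPKM in ACS, and fell by 0.94 ± 0.06, as did FvH4_1g26760 (-0.94) and FvH4_3g05530 (-0.83). Cytokinin oxidase 7 FvH4_2g30990, which breaks down cytokinin, fell by 1.09. The gibberellin-regulated gene FvH4_2g33410 showed the largest difference in RPKM of all genes called, with 4084, 4093 and 4011 RPKM in CCS, against 6160, 6319 and 6227 RPKM in ACS (log2 change -0.62 ± 0.04). Because of this gene the summed RPKM of the group was 4658, 4637 and 4527 in CCS and 6762, 6894 and 6797 in ACS. Auxin genes lay near the level of all tested genes, with 17 of 71 higher (23.9%, against 18.4% of all) and 8 lower (11.3%, against 10.3%), a median of 0.08, and 13 against 11 after scaling. Within them the GH3 gene FvH4_2g04750 fell (3.87, 3.02 and 2.98 RPKM in CCS, 8.72, 8.22 and 8.77 RPKM in ACS) and the GH3 gene FvH4_4g22430 rose by 0.74, while FvH4_4g21780, an indole-3-acetic acid inducible repressor, rose by 0.69.

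Pectin genes moved both ways. Of 30 tested genes of pectin methylesterases and their inhibitors 9 fell and 8 rose, with a median of -0.01 (10 and 5 after scaling). These proteins remove methyl groups from pectin or block that removal, and a superfamily description does not tell which. FvH4_5g35590 had 14.1, 11.4 and 14.04 RPKM in CCS, against 42.3, 40.8 and 38.6 RPKM in ACS, a fall of 1.62 ± 0.10 (adjusted p = 0.000414). Its neighbour FvH4_5g35580 had 0.405, 0.244 and 0.244 RPKM in CCS and 3.29, 2.33 and 2.47 RPKM in ACS (log2 change -2.82 ± 0.19). FvH4_7g11320 had 1.84, 1.51 and 2.29 RPKM in CCS and 14.7, 11.2 and 13.3 RPKM in ACS (log2 change -2.74 ± 0.17), and FvH4_7g27760 fell by 1.24. All 4 had low values at harvest, with AH means between 0.0443 and 4.41 RPKM. The most expressed member that changed, FvH4_5g00420, moved up, with 995, 926 and 959 RPKM in CCS and 701, 741 and 774 RPKM in ACS (log2 change 0.38 ± 0.06), and it is named here after its values were seen. The summed RPKM of the superfamily was higher, with 1974, 1868 and 1929 in CCS and 1590, 1631 and 1682 in ACS, and FvH4_5g00420 made up much of these sums. By count, 8 of its 22 tested genes fell and 5 rose, with a median of -0.15, and 9 fell and 3 rose after scaling.

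Pectin lyase-like genes, whose family holds enzymes that cleave the pectin backbone, rose in 7 of 19 tested members and fell in 1, with a median of 0.23 (6 and 1 after scaling, median 0.16). FvH4_6g41380 had 832, 845 and 865 RPKM in CCS, against 571, 621 and 637 RPKM in ACS, a rise of 0.48 ± 0.06 (adjusted p = 0.00316). FvH4_4g05760 had 385, 405 and 457 RPKM in CCS and 250, 296 and 301 RPKM in ACS, a rise of 0.56. FvH4_5g06720 showed the largest rise among lyases, 1.15 ± 0.05, with 10.1, 9.24 and 9.68 RPKM in CCS and 4.21, 4.34 and 4.37 RPKM in ACS. For each of the 3 the AH mean (791, 486 and 17.2 RPKM) was closer to CCS than to ACS. Of the 3 tested genes with polygalacturonase in their description, 2 fell, by 0.80 and 0.64. The summed RPKM of the 3 was 384, 341 and 352 in CCS and 498, 501 and 520 in ACS. Both falling genes lay outside the group of pectin lyases and polygalacturonases, whose lowest change was -0.36. The word alone does not tell whether they encode the enzyme. FvH4_1g00290, a pectin lyase-like gene under the expression limit, had 0.0525, 0.0852 and 0.0680 RPKM in CCS and 0.555, 0.392 and 0.327 RPKM in ACS, and was lower by 1.62 in the fit without the limit (adjusted p = 0.0055).

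The xyloglucan and expansin group had 7 genes higher and 9 lower of 28 tested, and its median turned from 0.05 as deposited to -0.02 after scaling. Expansins loosen the bonds between cellulose and the matrix, and the alpha-expansins among them moved up: 6 of 11 tested rose and none fell (0 lower at an unadjusted limma p under 0.05 and 0 by voom), with a median of 0.25, and 3 of the 6 rises were kept after scaling. Expansin A4 FvH4_3g36410 had 8.37, 8.47 and 7.57 RPKM in CCS, against 2.75, 3.11 and 3.05 RPKM in ACS, and rose by 1.43 ± 0.07 (adjusted p = 0.000306). Expansin A8 FvH4_7g25860, the most expressed expansin, had 1928, 1771 and 1879 RPKM in CCS and 1275, 1326 and 1351 RPKM in ACS (log2 change 0.50 ± 0.05), and was named after its values were seen. In contrast, all 3 tested expansin-like genes fell. Expansin-like B1 FvH4_5g21120 had 33.3, 37.7 and 38.4 RPKM in CCS, against 111, 97.3 and 94.8 RPKM in ACS, a fall of 1.47 ± 0.09 (adjusted p = 0.000416), and FvH4_5g20290, also expansin-like B1, fell by 1.57 with an ACS mean of 1.98 RPKM.

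Xyloglucan endotransglucosylase/hydrolases join and reshape the xyloglucan chains between cellulose fibres, and 6 of the 15 tested genes fell and 1 rose. XTH15 FvH4_6g38170 had 0.506, 0.501 and 0.517 RPKM in CCS and 1.80, 1.78 and 1.69 RPKM in ACS, a fall of 1.61 ± 0.05. XTH30 FvH4_5g23180, at a higher level, had 47.7, 42.7 and 44.4 RPKM in CCS and 67.7, 71.1 and 72.5 RPKM in ACS, a fall of 0.65. The rising gene was XTH4 FvH4_4g22090, with 25.8, 24.4 and 25.5 RPKM in CCS and 12.7, 12.7 and 12.8 RPKM in ACS (log2 change 0.98 ± 0.05, adjusted p = 0.000278). XTH4 and expansin A4 also had in common that CCS was well above NCS (means of 2.71 and 0.60 RPKM in NCS), a description of 4 groups for which no test was run here.

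Cellulose genes had 10 of 36 higher and 10 lower as deposited, with a median of -0.03, and 6 higher and 10 lower after scaling, with a median of -0.10. Among endoglucanases of glycosyl hydrolase family 9, which cut glucan chains, 4 of 9 rose and 1 fell. Glycosyl hydrolase 9B13 FvH4_2g25990 had 1.97, 1.65 and 2.03 RPKM in CCS and 0.903, 0.993 and 1.02 RPKM in ACS, a rise of 0.89, whereas cellulase 3 FvH4_2g00610 fell by 0.73. On the side of synthesis, 3 of the 4 tested genes described as cellulose synthase like E1 fell. FvH4_3g42750 had 3.03, 3.01 and 3.10 RPKM in CCS and 6.02, 5.63 and 5.23 RPKM in ACS (log2 change -0.86), and FvH4_3g42900 fell by 1.45. The COBRA-like gene FvH4_6g46530, of a family that orients cellulose fibres in Arabidopsis, rose by 0.70. Of 3 tested genes with mannose-1-phosphate guanylyltransferase in their description, 2 rose. FvH4_3g23310, named GMP in the study, had 21.2, 21.8 and 21.5 RPKM in CCS, against 15, 15.97 and 16.1 RPKM in ACS (log2 change 0.45 ± 0.05). FvH4_4g27370, which the study names GGalPP and not GMP, rose by 0.43. The O-fucosyltransferase genes FvH4_6g37210 and FvH4_3g01440 rose by 0.49 and 0.41. The call of FvH4_3g01440 was lost without ACS library 2 (0.37), CCS library 2 (0.34) or CCS library 3 (0.39).

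In the group of phenolics and lignin 15 of 52 tested genes rose and 9 fell, and 11 against 11 after scaling. The 31 tested members other than dirigent-like and laccase genes, mainly of monolignol synthesis and related dehydrogenases, had 8 higher (25.8%) and 5 lower (16.1%), and 5 against 7 after scaling. The 8 rises were small, at most 0.42, and the falls reached 2.22. Ferulic acid 5-hydroxylase 1 FvH4_1g12210, which leads to syringyl lignin, had 26.9, 23.8 and 24.6 RPKM in CCS, against 49.2, 48.6 and 52.3 RPKM in ACS, a fall of 0.99 ± 0.06 (adjusted p = 0.000460). FvH4_5g10640 and FvH4_1g16790, zinc-binding dehydrogenases of the family that holds cinnamyl alcohol dehydrogenase, fell by 1.88 and 2.22, both from under 3 RPKM in ACS. Laccases couple monolignols, and 3 of the 9 tested fell with none higher (0 at an unadjusted limma p under 0.05 and 0 by voom). Laccase FvH4_1g24380 had 20.3, 19.4 and 17.9 RPKM in CCS and 36.6, 32.9 and 31.7 RPKM in ACS, a fall of 0.81. Laccase 7 FvH4_6g12430 had 0.459, 0.405 and 0.505 RPKM in CCS and 2.83, 2.62 and 2.16 RPKM in ACS, a fall of 2.24. Dirigent-like genes, of a family known to steer the coupling of phenolic radicals, held 7 of the 15 rises of the group, as 7 of 12 rose and 1 fell with a median of 0.50 (6 and 1 after scaling). FvH4_6g43350 rose most among them, with 4.91, 4.72 and 4.26 RPKM in CCS and 2.78, 1.40 and 2.19 RPKM in ACS, a change of 1.14 ± 0.23 that did not pass the test without CCS library 2 (1.12, adjusted p = 0.056).

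Secreted class III peroxidases can also couple phenolics, and 8 of the 24 tested fell while 1 rose, with a median of -0.29. FvH4_2g13110, with 49.8, 49.7 and 51.8 RPKM in CCS and 103, 100.1 and 91.7 RPKM in ACS, fell by 0.96 ± 0.06 (adjusted p = 0.000428), and the summed RPKM of the group was 280, 280 and 279 in CCS, against 397, 371 and 372 in ACS. Blue copper proteins and cupredoxins, secreted electron carriers, were mostly lower: 11 of 20 tested fell and 3 rose, with a median of -0.53, and scaling changed neither count. The most abundant, FvH4_1g02890, had 169, 134 and 151 RPKM in CCS and 249, 263 and 263 RPKM in ACS, a fall of 0.78. Its numbered neighbour FvH4_1g02870 had 6.28, 5.43 and 6.24 RPKM in CCS and 17.1, 18.6 and 16.6 RPKM in ACS, a fall of 1.53. FvH4_5g01040 and FvH4_3g01050 rose, by 0.56 and 0.48. The members of this copper protein list were set out in full after their values were seen.

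Raffinose family sugars and late embryogenesis abundant (LEA) proteins are known to protect cells that lose water. Galactinol synthase, the first committed enzyme of the raffinose path, had genes that went in opposite directions. Galactinol synthase 2 FvH4_4g20790 had 1.24, 1.22 and 1.12 RPKM in CCS, against 9.08, 6.68 and 6.33 RPKM in ACS, a fall of 2.51 ± 0.14 (adjusted p = 0.000365), and its mean was 1.83 RPKM in NCS and 0.352 RPKM in AH fruit. FvH4_6g07930, with the same description, had 2.87, 2.45 and 2.15 RPKM in CCS and 1.60, 1.66 and 1.61 RPKM in ACS, a rise of 0.58 ± 0.10. The raffinose synthase gene FvH4_1g02620 fell by 0.42, with 26.1, 21.9 and 23.6 RPKM in CCS and 30.8, 32.6 and 32.6 RPKM in ACS. Of the alpha-galactosidases, which take the sugars apart again, FvH4_4g05940 fell by 1.24 and FvH4_2g12370 rose by 0.63.

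Both higher DEGs with a description were LEA family genes and lie next to each other in number. FvH4_3g08950 had 3.76, 4.36 and 3.61 RPKM in CCS, against 0.595, 1.04 and 0.606 RPKM in ACS, a rise of 2.28 ± 0.20 (adjusted p = 0.00116). FvH4_3g08940 had 1.17, 1.28 and 0.922 RPKM in CCS, against 0.361, 0.316 and 0.207 RPKM in ACS, a rise of 1.64 ± 0.18, and as neighbours the 2 may share reads. Both were near 0 without cold storage, with means of 0.0564 and 0.0348 RPKM in NCS and 0.183 and 0.107 RPKM in AH fruit. The other higher DEGs, FvH4_6g27240 (8.71, 8.96 and 7.95 RPKM in CCS, 3.03, 2.46 and 1.66 RPKM in ACS) and FvH4_6g27231, are likewise close in number and have no Rosaceae description. In the LEA group as a whole 2 of 21 were higher and 1 lower. The group moved with the achene genes: its summed RPKM was 2542, 2470 and 1118 in CCS and 2730, 1735 and 1684 in ACS, and its median of -0.05 ranged from -0.32 to 0.41 when 1 library was left out. With the achene covariate 5 were higher and 1 lower, with a median of 0.11. The lower gene, FvH4_7g15460, had 102, 116 and 97.7 RPKM in CCS and 187, 176 and 179 RPKM in ACS, and fell by 0.79. LEA hydroxyproline-rich genes and relatives, whose family includes pathogen-induced NDR1/HIN1-like proteins in Arabidopsis, mostly moved down, 29 of 78 lower and 6 higher. The most expressed of those named by rule, FvH4_5g39741, had 197, 180 and 181 RPKM in CCS and 330, 341 and 340 RPKM in ACS, a fall of 0.86 ± 0.05.

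Genes of defence proteins were more often lower than higher in CCS. Of 34 tested pathogenesis-related (PR) genes, among them chitinases that cut fungal walls and thaumatins that can inhibit fungi, 17 fell (50.0%) and 1 rose, with a median of -0.36 and the same counts after scaling. Their summed RPKM was 516, 488 and 502 in CCS, against 797, 731 and 733 in ACS. The chitinase FvH4_2g31570 had 17.7, 14.4 and 16.4 RPKM in CCS and 40.3, 37.7 and 34.4 RPKM in ACS (log2 change -1.21 ± 0.10, adjusted p = 0.000778), and FvH4_4g10600, with the same description, fell by 1.21 as well. The thaumatin FvH4_6g16950 had 33.9, 28.7 and 33.9 RPKM in CCS and 82.7, 60.6 and 57.8 RPKM in ACS, a fall of 1.04. Both tested PR-4 genes fell, by 0.80 and 0.84. The single rising gene was chitinase A FvH4_7g30230, with 1.35, 1.87 and 1.58 RPKM in CCS and 0.798, 0.883 and 0.473 RPKM in ACS (log2 change 1.08, and 0.97 with an adjusted p of 0.059 without CCS library 2).

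Major latex protein-like (MLP) genes, relatives of the PR-10 and birch allergen fold, were lower in 15 of 22 tested members and higher in 1, with a median of -0.31. They were abundant, with sums of 4632, 4666 and 4717 RPKM in CCS and 5845, 5605 and 5657 RPKM in ACS. FvH4_4g19050 was the most abundant, with 1492, 1496 and 1525 RPKM in CCS and 1943, 1916 and 1897 RPKM in ACS (log2 change -0.35 ± 0.04), against an AH mean of 197 RPKM, and it was named after its values were seen. FvH4_4g19170 fell most, by 0.95, with 8.20, 8.77 and 7.61 RPKM in CCS and 16.2, 15.6 and 15.8 RPKM in ACS. Many MLP genes lie side by side on chromosome 4 and may share reads. Protease inhibitors, which act against the digestive proteases of insects and microbes, had 7 of 15 lower and 1 higher. The Kunitz inhibitor FvH4_3g17480 had 5.13, 5.40 and 5.33 RPKM in CCS and 15.4, 14.2 and 12.9 RPKM in ACS, a fall of 1.40 ± 0.07, and 4 of the 5 tested potato inhibitor I genes fell, by 0.89 to 1.87. Germin and cupin genes did not move as a group, with 6 of 31 higher and 5 lower, although germin 3 FvH4_1g08540 (10.8, 10.1 and 11.7 RPKM in CCS, 47.1, 45.7 and 44.3 RPKM in ACS) was among the lower DEGs and FvH4_2g06460, also germin 3, rose by 1.32. This group contains the seed storage cupin whose RPKM followed the achene markers (1424, 1257 and 483 in CCS, 1972, 1185 and 1056 in ACS).

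Genes that perceive and pass on signals of attack were also more often lower than higher, with small changes. Among receptor kinases 66 of 269 tested fell (24.5%) and 27 rose (10.04%), with a median of -0.08, and 75 against 14 after scaling. The lectin kinase FvH4_3g19922 fell most, with 0.574, 0.623 and 0.586 RPKM in CCS and 2.47, 2.59 and 2.05 RPKM in ACS (log2 change -1.82 ± 0.09). NBS-LRR resistance genes, the intracellular sensors, had 15 of 155 lower (9.68%, close to the 10.3% of all tested genes) and 4 higher (2.58%). FvH4_5g11200 fell most among them, with 1.71, 1.72 and 1.82 RPKM in CCS and 3.14, 2.88 and 3.60 RPKM in ACS. All 8 tested genes described as glutamate receptor 2.7, of a family of amino acid gated calcium channels, fell, by 0.25 to 0.92 with a median of 0.65 in size. All 8 also fell with the achene covariate, and after scaling, which moves every change downwards. FvH4_3g32960, the most expressed, had 30.1, 29.4 and 30.7 RPKM in CCS and 48.2, 51.8 and 49.0 RPKM in ACS (log2 change -0.72 ± 0.05, adjusted p = 0.000542). This description was singled out after its values were seen, as the lowest median among 200 descriptions shared by at least 8 tested genes.

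Calcium signalling genes had 35 of 164 lower and 18 higher (41 and 7 after scaling). Calmodulin-like 42 FvH4_6g09300 had 5.73, 5.82 and 5.52 RPKM in CCS and 10.9, 10.5 and 10.4 RPKM in ACS, a fall of 0.88, and calmodulin-like 38 FvH4_5g26790 had 43.7, 41.9 and 40.5 RPKM in CCS and 69.7, 70.0 and 68.2 RPKM in ACS, a fall of 0.72. The EF-hand gene FvH4_4g31200 went against this and rose by 1.06. WRKY transcription factors, regulators of defence genes, fell in 21 of 44 tested members (47.7%) and rose in 4, with a median of -0.19. WRKY33 FvH4_3g39850, whose Arabidopsis namesake is needed for defence against Botrytis, had 21.2, 18.6 and 20.3 RPKM in CCS and 35.8, 37.3 and 37.5 RPKM in ACS (log2 change -0.88 ± 0.06, adjusted p = 0.000566). WRKY11 FvH4_4g06830 and WRKY72 FvH4_5g15340 fell by 0.87 and 0.95. In RPKM the WRKY sum was 782, 717 and 749 in CCS, against 947, 971 and 985 in ACS.

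FAD-binding berberine family genes, secreted oxidases that in Arabidopsis act on wall oligosaccharides and monolignols, formed another run of falls, 9 of 12 tested lower and 1 higher with a median of -0.63. FvH4_3g11300 had 9.31, 9.05 and 9.32 RPKM in CCS and 31.5, 31.7 and 30.1 RPKM in ACS, and fell by 1.74 ± 0.05 (adjusted p = 0.000122). FvH4_3g11090, the most expressed, had 69.9, 63.5 and 67.2 RPKM in CCS and 97.7, 98.4 and 94.7 RPKM in ACS, and fell by 0.54. The rising gene, FvH4_3g11010, had 11.8, 11.7 and 12.1 RPKM in CCS and 8.68, 9.02 and 9.51 RPKM in ACS. All 12 carry numbers close together on chromosome 3, so they may share reads, and they were listed in full after their values were seen. Glutathione S-transferases of the tau class, which detoxify electrophiles, were lower in 13 of 24 and higher in 2, with sums of 782, 799 and 781 RPKM in CCS and 996, 1008 and 957 RPKM in ACS.

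Genes that handle CO2, carboxylates and protons were looked at because the gas dissolves to an acid. Of 55 tested, 17 rose and 6 fell with a median of 0.13, but after scaling 2 rose and 8 fell, so the direction of the group depended on the scaling. Several members kept their call under both. H(+)-ATPase 1 FvH4_4g07810, a proton pump, had 26.1, 25.3 and 27.5 RPKM in CCS, against 52.3, 49.2 and 50.7 RPKM in ACS, a fall of 0.95 ± 0.05 (adjusted p = 0.000397). Alpha carbonic anhydrase 7 FvH4_3g31680, of enzymes that interconvert CO2 and bicarbonate, had 24.2, 24.7 and 25.2 RPKM in CCS and 39.8, 42.3 and 39.1 RPKM in ACS, a fall of 0.71. Glutamate decarboxylase FvH4_1g30330, which consumes a proton as it makes GABA, had 11.9, 11.3 and 11.8 RPKM in CCS and 18.9, 18.8 and 18.5 RPKM in ACS, a fall of 0.68. Phosphoenolpyruvate carboxylase kinase 1 FvH4_6g02090, an activator of carboxylation, had 3.94, 3.44 and 3.65 RPKM in CCS and 2.37, 2.03 and 2.05 RPKM in ACS, a rise of 0.75.

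Fermentation genes showed little difference. Pyruvate decarboxylase and alcohol dehydrogenase turn pyruvate into acetaldehyde and ethanol when oxygen is short, and of 5 tested genes of the fermentation group 1 fell and none rose, although 1 was higher at an unadjusted limma p under 0.05 and by voom. Pyruvate decarboxylase FvH4_1g28990 had 31.6, 31.5 and 32.7 RPKM in CCS and 35.5, 36.9 and 36.4 RPKM in ACS, a fall of 0.18 that was lost when any 1 of the 6 libraries was left out (adjusted p of 0.055 to 0.11). Pyruvate decarboxylase-2 FvH4_6g11100, far more abundant, had 869.7, 841 and 861 RPKM in CCS and 770.4, 807.9 and 837.6 RPKM in ACS, a difference of 0.09 ± 0.05 that did not pass the test (adjusted p = 0.23). Alcohol dehydrogenase 1 FvH4_2g14750 differed by -0.15 ± 0.14 with overlapping groups (115, 107 and 97.9 RPKM in CCS, 145, 105 and 109 RPKM in ACS). In glycolysis, phosphofructokinase 3 FvH4_6g32610 had 1.64, 1.63 and 1.68 RPKM in CCS and 4.45, 4.20 and 3.73 RPKM in ACS, a fall of 1.27, and the group as a whole had 10 of 56 higher (17.9%, close to the 18.4% of all tested genes) and 3 lower, and 3 against 4 after scaling. Respiratory genes rose in 22 of 74 tested members (29.7%, against 18.4% of all tested genes) and fell in 3, with a median of 0.15. After scaling 7 rose (9.46%, close to the 9.38% of all tested genes) and 3 fell. Among those that fell was alternative oxidase 2 FvH4_4g05930, the mitochondrial bypass that stress induces, with 80.9, 78.8 and 80.2 RPKM in CCS and 118, 117 and 116 RPKM in ACS (log2 change -0.55 ± 0.04, adjusted p = 0.000729). The AH mean of that gene was 11.8 RPKM.

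Histone genes rose together. Histones are the proteins around which DNA is wound, and they are made mainly while DNA is copied. Of 45 genes described as histone superfamily 35 were tested, and 27 of them rose and none fell (0 lower at an unadjusted limma p under 0.05 and 0 by voom), with a median log2 change of 0.69 (0.61 after scaling) and a range from -0.09 to 1.21. The count was 27 and 0 as well after scaling and with the achene covariate. Their summed RPKM was 4100.0, 4109 and 3905 in CCS libraries, against 2859, 2608 and 2693 in ACS libraries, with every CCS library above every ACS library.

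FvH4_7g20780, an abundant histone gene, had 209, 204 and 206 RPKM in CCS, against 96.0, 89.9 and 102 RPKM in ACS, a rise of 1.11 ± 0.06 (adjusted p = 0.000348). FvH4_6g43250 rose most, by 1.21 ± 0.08, with 20.7, 20.0 and 17.9 RPKM in CCS and 9.11, 7.73 and 8.28 RPKM in ACS. FvH4_2g24430 had 73.8, 71.7 and 70.7 RPKM in CCS and 32.9, 29.8 and 33.7 RPKM in ACS, a rise of 1.164. In these genes the AH and NCS means lay near or below ACS (85.6 and 71.2 RPKM in AH and NCS for FvH4_7g20780). The 8 histone genes that did not pass the test included abundant ones, such as FvH4_1g20270 with 431, 434 and 412 RPKM in CCS and 461, 440 and 449 RPKM in ACS (log2 change -0.08 ± 0.05). Several rising histone genes carry neighbouring numbers (FvH4_3g35180, FvH4_3g35181 and FvH4_3g35183, at 0.82 to 0.84) and may share reads. The 84 other tested chromatin genes rose in 17 cases and fell in 1, with a median of 0.08, near that of all genes, and chromatin remodeling 1 FvH4_1g13430 rose by 1.10.

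Genes of the cell cycle and DNA replication rose in number too, as 22 of 56 tested were higher in CCS (39.3%) and none lower (17 and 0 after scaling), with 1 lower at an unadjusted limma p under 0.05 and 0 by voom. The median was 0.18 (0.11 after scaling). Cell division control 6 FvH4_3g38340, which loads the replicative helicase, had 7.46, 8.51 and 8.59 RPKM in CCS, against 3.94, 4.30 and 4.36 RPKM in ACS, a rise of 0.94 ± 0.08 (adjusted p = 0.000773). The DNA replication protein-related gene FvH4_4g13700 had 11.7, 13.8 and 13.1 RPKM in CCS and 6.07, 6.64 and 6.87 RPKM in ACS, a rise of 0.97. Cell division cycle 45 FvH4_2g18640, part of the active helicase, had 7.08, 8.30 and 8.05 RPKM in CCS and 4.35, 4.34 and 4.14 RPKM in ACS, a rise of 0.85. Minichromosome maintenance 10 FvH4_2g01260 rose by 0.86 and the cyclin-like gene FvH4_6g46960 by 0.90. Of 10 tested minichromosome maintenance genes, the helicase itself and its partners, 8 rose and none fell (0 lower at an unadjusted limma p under 0.05 and 0 by voom), and their summed RPKM was 130, 128 and 130 in CCS and 100.3, 103 and 108 in ACS.

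Most ribosomal protein genes shifted upwards by small amounts. Of 393 genes 330 were tested, of which 202 rose (61.2%) and none fell in limma (1 lower at an unadjusted p under 0.05 and 1 by voom), with a median of 0.25 and 25th and 75th percentiles of 0.16 and 0.32, and 93.6% of them had a change above 0. After scaling 121 rose and 1 fell, with a median of 0.17. Apart from the rest stood the 6 tested members with FvH4_c numbers, which differed by -0.74 to -1.01 without passing the test. Their summed RPKM varied widely within both groups, with 17.4, 50.4 and 24.7 in CCS and 117, 73.7 and 14.2 in ACS. The other 324 had a median of 0.25 and a range from -0.375 to 0.68. For all 330 the summed RPKM was 26540, 26060 and 25440 in CCS, against 22210, 21790 and 22170 in ACS, 17880 in NCS and 21970 in AH. All 12 genes of the L7Ae/L30e family, which bind kinks in ribosomal RNA, were tested, and 10 rose with none lower, also at an unadjusted limma p under 0.05 and by voom (8 rose after scaling), with a sum of 1266, 1316 and 1305 RPKM in CCS and 1034, 1072 and 1072 RPKM in ACS. The largest single rises were small in RPKM, such as the L12 gene FvH4_4g36570 with 3.34, 3.50 and 3.60 RPKM in CCS and 2.19, 2.35 and 2.08 RPKM in ACS (log2 change 0.64 ± 0.06).

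Of the other genes of protein synthesis, translation factors had 18 of 67 higher and 2 lower with a median of 0.09, near the 0.07 of all genes, and 5 and 3 after scaling. The initiation factor IF6 FvH4_2g14450, which acts on the large ribosomal subunit, rose by 0.32 with 72.5, 81.5 and 78.03 RPKM in CCS and 60.6, 62.1 and 62.8 RPKM in ACS. The SUI1 gene FvH4_3g22740, of start codon selection, fell by 0.62 with 40.5, 42.8 and 39.4 RPKM in CCS and 62.0, 65.5 and 61.8 RPKM in ACS. Aminoacyl-tRNA synthetases had 13 of 59 higher (22.03%, against 18.4% of all tested genes) and none lower (1 at an unadjusted limma p under 0.05 and 0 by voom). After scaling 5 were higher (8.48%, against 9.38% of all) and 0 lower, so the share of higher genes was near that of all genes.

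**Figure D5:**
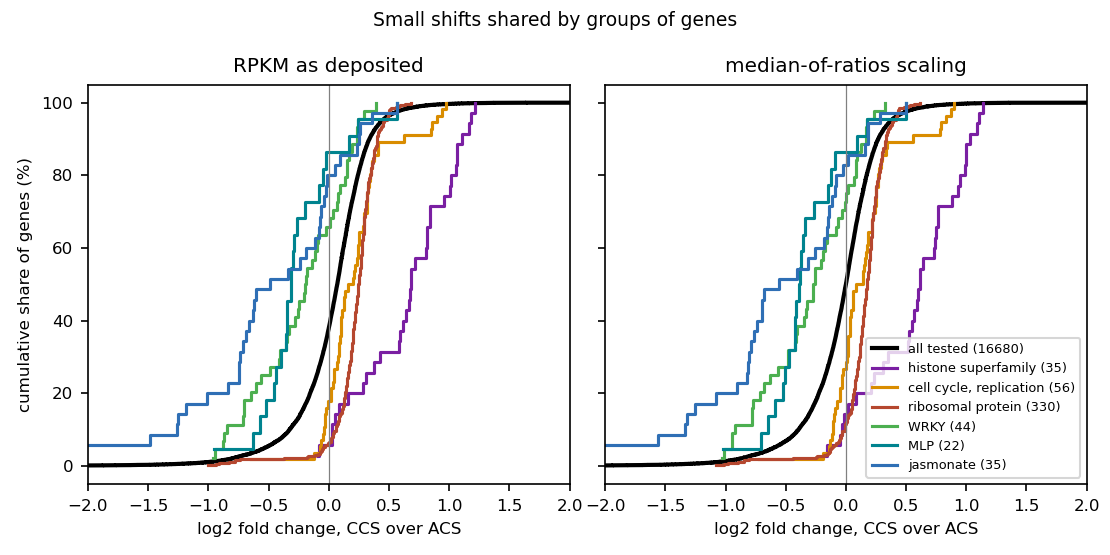
Cumulative share of genes (vertical axis, %) with a log2 fold change of CCS over ACS up to the value on the horizontal axis, with RPKM as deposited (left) and after median-of-ratios scaling (right), for 6 groups and for all 16680 tested genes (black). The ribosomal curve lies to the right of the black one over most of its length, the histone curve lies furthest right, and the jasmonate, MLP and WRKY curves lie to the left in both panels.

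Genes named in the study for reference and senescence served as a last check of size. Actin-11 FvH4_7g22410 had 14.2, 14.4 and 14.3 RPKM in CCS and 14.4, 13.2 and 14.6 RPKM in ACS, a difference of 0.03 ± 0.06 (adjusted p = 0.72) that becomes -0.04 after scaling. Senescence-related gene 1 FvH4_3g06513 had 0.516, 0.440 and 0.375 RPKM in CCS and 0.770, 0.512 and 0.452 RPKM in ACS, with overlapping groups (log2 change -0.30 ± 0.19, adjusted p = 0.27). Senescence-associated gene 12 FvH4_1g25983 stayed under the expression limit in both groups, at 0.122 to 0.350 RPKM in CCS and 0.154 to 0.228 RPKM in ACS. Among the wider group of autophagy and senescence genes, 7 of 33 fell (21.2%, against 10.3% of all tested genes) and 1 rose (3.03%, against 18.4%). The median was -0.05, and after scaling 8 fell and 1 rose.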

How the data were processed

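Total RNA of ripe strawberries was sequenced as paired-end libraries made with a stranded kit. The authors trimmed reads with Cutadapt 1.16.6, aligned them with HISAT2 2.1.0 to the Fragaria vesca whole genome v4.0.a2, and deposited RPKM values per gene that SeqMonk computed without regard to strand, so overlapping or antisense genes may share reads, as may adjacent copies. Mara des Bois is also grown as garden strawberry, a hybrid species whose gene copies would be counted together on this genome; the labelled species was not checked here. The table also holds 6 columns of log2 fold changes from the authors' own DESeq2 comparisons, which were not used.

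The 6 CCS and ACS libraries were compared with limma 3.58.1 in R 4.3.3 on log2(RPKM + 0.1), without trend or block, over genes that reached 0.5 RPKM in 3 or more libraries (16680), with Benjamini-Hochberg adjustment. For a single gene, an exact two-sided permutation test of 3 against 3 libraries could not go below 0.1. Between libraries of a group 34.2% to 45.9% of genes differed beyond counting noise (chi-square, 0.05 level), and all were kept as replicates. The recovered reads exceed the read pairs given in the study, so both mates of a pair appear to be counted. The chi-square takes reads as independent, and these shares are then too high. RPKM values corresponded to whole reads for 99.99% of genes above 0 (tolerance 0.05 reads), and these reads served for depth and for an added count fit. In data simulated for this comparison over 16678 genes, 93 of 100 genes changed by 2 on the log2 scale and 99 of 100 changed by 3 were called as DEGs, and no unchanged gene was. The simulation held no smaller changes, no container effect and no scaling offset. It therefore does not bear on calls made by the adjusted p alone.

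Groups were formed from words in the descriptions and the word lists were corrected after the descriptions were read; the groups, their members and the named genes were chosen with earlier results of these data known. Named genes were those identified in the text of the study, the 15 DEGs with the largest falls, up to 10 with the largest rises, and up to 5 called genes with the largest changes in each group described, 183 in all, of which 178 were tested and 176 passed the test; other genes were chosen after their values were seen. Alternatives were a pseudocount of 1, other filters, scalings, a block for replicate numbers, all 12 libraries in one fit, a variance trend, voom on recovered reads and leaving out each library. Gene sequences and coordinates of this genome were not used here.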

Additional observations from a re-analysis of the deposited data

How the results depend on the processing

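With a pseudocount of 1 RPKM there were 15 DEGs in place of 53, because weakly expressed genes then change less on the log scale. Genes higher in CCS at an adjusted p of 0.05 or less, 3075 in number, became 1812 without a filter on low values, 1565 with median-of-ratios scaling and 2033 with all 12 libraries in one fit. Functional groups with more lower than higher genes became 43 in place of 26 with median-of-ratios scaling, and also with that scaling and the block. The change of actin-11 FvH4_7g22410 was 0.03 as reported, -0.0429 with that scaling, alone or with the block, and -0.0163 without ACS library 2, and it was never past the threshold. In 12 of the 58 groups, xyloglucan and expansin, NAC, MYB, bHLH and zinc finger among them, the scaling changed the sign of the median. Voom on recovered reads gave 68 DEGs and 5150 genes past the threshold.

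Leaving out each library in turn gave 50 to 62 DEGs, 2521 to 4133 genes past the threshold, 1428 to 2519 higher, 1093 to 1747 lower, 25 to 30 groups with more lower genes, and 152 to 165 named genes past the threshold; FvH4_7g22410 ranged from -0.0163 to 0.0562. The total fell by over 1.5 times without ACS library 2 (2521), CCS library 2 (2725) or CCS library 3 (2865), the number of higher genes also without ACS library 1 (1951), and the number of lower genes without ACS library 2 (1093). Such fits have fewer samples.

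The replicate numbers are shared between groups by number only: the deviations of same-numbered CCS and ACS libraries correlated at 0.31, 0.05 and 0.40, and CCS library 2 correlated best with ACS library 1 (0.39). With a replicate block there were 53 DEGs, 2600 genes higher and 1629 lower, and with the block and median-of-ratios scaling together, chosen after seeing the data, 1252 were higher. Of the 178 tested named genes, 170 kept their direction and side of the threshold with the block, 169 with median-of-ratios scaling, 174 with the achene covariate (also chosen after seeing the data) and 159 without a filter, where more genes are tested.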

Other observations

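Some gene groups lay outside the themes of hormones, walls, defence and growth. Mitochondrial transcription termination factor genes, regulators of organelle gene expression, were higher in CCS in 11 of 34 tested members and lower in none by limma (0 at an unadjusted p under 0.05 and 0 by voom), with a median log2 change of 0.27 and sums of 70.9, 71.2 and 68.5 RPKM in CCS, against 62.6, 59.2 and 58.2 RPKM in ACS. The share higher was 32.35%, against 18.4% of all tested genes. With median-of-ratios scaling the count was 6 and 0, with 17.65% higher, against 9.38% of all. Small nuclear ribonucleoprotein genes, parts of the spliceosome, were higher in 15 of 31 (48.4%, against 18.4% of all tested genes). None was lower (0 at an unadjusted limma p under 0.05 and 0 by voom). After scaling 4 were higher (12.9%, nearer the 9.38% of all), and the median went from 0.19 to 0.11. Photosystem genes were weakly expressed, with 7 of 35 higher (20.0%, against 18.4% of all tested genes) and 2 after scaling (5.71%, against 9.38%). Their median of 0.22 ranged from 0.12 to 0.32 when 1 library was left out, and the sums overlapped between groups (86.7, 81.8 and 76.7 RPKM in CCS, 78.15, 67.75 and 62.9 RPKM in ACS).

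Flavonoid genes, which build the red pigments of the fruit, were higher in 4 of 12 and lower in 3, and 2 against 3 after scaling. The chalcone-flavanone isomerase FvH4_7g25890 had 1624, 1764 and 1666 RPKM in CCS, against 1392, 1384 and 1402 RPKM in ACS, a rise of 0.27 ± 0.05 on the log2 scale, and FvH4_7g20870, with the same description, had 299, 310.1 and 312 RPKM in CCS, against 216, 220 and 226 RPKM in ACS, a rise of 0.48. Leucoanthocyanidin dioxygenase FvH4_5g01170 and dihydroflavonol 4-reductase FvH4_2g39520 rose by 0.21 and 0.19, and both calls were lost after scaling (adjusted p of 0.18 and 0.13). The members that fell, such as FvH4_2g28040, a chalcone synthase family gene at 2.23 to 2.67 RPKM in CCS and 3.08 to 4.09 RPKM in ACS, were weakly expressed. Metallothionein 3 FvH4_3g20030, a metal-binding protein, showed the largest gain in RPKM among the genes called, with 4749, 4758 and 4659 RPKM in CCS and 3957, 4189 and 4326 RPKM in ACS, a log2 change of 0.18 ± 0.05 (adjusted p = 0.043 in limma). Its call was lost after scaling (0.11, adjusted p = 0.19) and without the expression limit (adjusted p = 0.0995), and it was named after its values were seen. Of 76 tested heat shock genes 8 were higher (10.5%, against 18.4% of all tested genes) and 9 lower (11.8%, close to the 10.3% of all). After scaling 3 were higher (3.95%, against 9.38%) and 12 lower (15.8%, against 12.9%).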
